A study of Mus musculus with 10 samples.

Results

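The Reg family lectins were followed here through 5 genes, Reg1, Reg3a, Reg3b, Reg3g and Reg4, among 22180 genes measured on 10 Affymetrix MoGene 2.0 ST arrays of mouse intestinal cells. Members were chosen by gene symbol in the platform annotation, and each had 1 probe set, so no choice between probe sets was needed. Values are log2 intensities per probe set, in which a difference of 1 is a doubling of the signal, and the labels put 4 arrays in the Flattop group and 6 in the Lgr5-high group. Flattop arrays held crypt cells of mice with the genotype FltpT2AiCre crossed with Gt(ROSA)26mTmG, on a mixed C57BL/6J, CD1 and 129/SvJ background. Lgr5-high arrays held stem cells with high Lgr5 and GFP from C57BL/6J mice with the genotype Lgr5-EGFP-IRES-creERT2. All mice were 3 to 6 months old, and no treatment is listed for either group. Cre in the first line is tied to the Flattop gene (Cfap126), and a Cre reporter of this kind marks the cells in which Cre was active together with their descendants. The gate of the sort is not given in the sources used here. Group, genotype and strain coincide and cannot be told apart.

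Reg proteins are small secreted C-type lectins of the gut and pancreas. Reg3b and Reg3g kill bacteria in the mucus close to the epithelium, with Reg3g binding the peptidoglycan of Gram-positive species, and both are induced through STAT3 by the cytokine IL-22 and through MyD88 by microbial signals. Reg1, first described as a pancreatic stone protein, and Reg4, a marker of secretory crypt cells including enteroendocrine cells, are made by the intestinal epithelium too. Paneth cells, goblet cells and enterocytes all make members of this family.

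Reg1, Reg2, Reg3a, Reg3b, Reg3d and Reg3g lie side by side within 98 kb of chromosome 6 in the GRCm38.p6 annotation of RefSeq, with no other protein-coding gene between them. Reg4 lies apart on chromosome 3 (bases 98222138 to 98236748, forward strand). All 7 genes had a promoter window in the RefSeq table. Windows of 4 genes are shown, 100 bases before to 50 bases after the annotated start, because they hold the most alike pair with high values in both genes (Reg3b and Reg3g) and the next most alike pair, of which Reg1 rose and Reg2 did not pass. Capitals mark the letters TATAAA on either strand.
Reg3b, chr6:78370785-78370934, forward strand: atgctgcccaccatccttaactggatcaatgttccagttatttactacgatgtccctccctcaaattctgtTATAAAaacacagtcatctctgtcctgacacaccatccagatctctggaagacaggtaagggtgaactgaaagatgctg
Reg3g, chr6:78468825-78468974, reverse strand: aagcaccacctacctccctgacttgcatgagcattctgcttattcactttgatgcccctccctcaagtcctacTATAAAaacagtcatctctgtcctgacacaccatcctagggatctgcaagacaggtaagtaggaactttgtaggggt
Reg1, chr6:78425883-78426032, forward strand: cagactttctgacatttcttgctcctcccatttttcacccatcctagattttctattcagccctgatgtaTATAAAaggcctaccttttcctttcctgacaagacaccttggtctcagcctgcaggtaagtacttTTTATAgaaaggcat
Reg2, chr6:78405055-78405204, forward strand: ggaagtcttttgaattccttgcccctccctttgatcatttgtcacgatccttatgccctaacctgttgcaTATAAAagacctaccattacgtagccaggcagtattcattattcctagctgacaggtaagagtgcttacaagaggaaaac
Over the full window of 300 bases, which starts 250 bases before the annotated start, Reg3b and Reg3g were identical at 69% of aligned positions and Reg1 and Reg2 at 58.5%. The other 19 pairs of the 7 genes ranged from 49.1% to 55.9%, and the 6 pairs with Reg4, on the other chromosome, from 49.1% to 51%. Reg3b and Reg3g shared an unbroken run of 29 bases across the start, found at chr6:78370865-78370893 on the forward strand and chr6:78468866-78468894 on the reverse strand. The run was picked as the longest that these 2 windows share, so its presence in both was given by the choice. Of the 32851 RefSeq promoter windows, only these 2 held it.
Shared run: acagtcatctctgtcctgacacaccatcc
The letters TATAAA, searched on both strands, were present in the windows of 4 of the 7 Reg genes, at position -29 in Reg3b, -27 in Reg3g and -30 in both Reg1 and Reg2, against 13.6% of all windows. Reg1 also held them on the other strand at 36, and Reg3g at -161. The letters TTCNNNGAA, the core bound by STAT factors, which read the same on both strands, were found in Reg3b (-129) and Reg3d (-238), that is in 2 of the 7 windows against 8.3% of all windows, and no match overlapped one of TATAAA. These windows are promoter sequence together with the 50 bases after the annotated start. The transcripts that the probes read were otherwise not compared between copies. Where the probes lie and how far they separate the copies is not given in the sources used here, so a value of a chromosome 6 gene may hold signal from another copy.

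Array medians lay between 4.56 and 4.77, the median of all values was 4.7, and detection calls were not available. Lgr5 read 9.47 ± 0.33 (SD, n = 6) on Lgr5-high arrays and 8.37 ± 1.42 (SD, n = 4) on Flattop arrays (difference -1.10, SE 0.51, limma adjusted p = 0.533). Cfap126 read 5.0 ± 0.35 and 5.42 ± 0.74 (0.43, SE 0.31, adjusted p = 0.678), so neither gene that names a group separated them in this test. The labels do not state whether each array had its own animal. The p-values thus rest on differences among arrays that may be technical in part. Title numbers of the samples fall into 1 to 8 and 38 to 46, with both groups in each range, and the labels do not say whether they mark batches. A fit within 1 range uses fewer arrays than the test on all 10. At a limma adjusted p under 0.05, 0.347% of all genes rose within titles 1 to 8 and 0.338% within titles 38 to 46. On all arrays 0.902% rose, so a call lost within a range may reflect fewer arrays.

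All 5 members read higher on every Flattop array than on any Lgr5-high array, and 3 of them, Reg4, Reg3a and Reg1, rose in the test across all genes (limma, two-sided, Benjamini-Hochberg adjusted p under 0.05). In the same test 200 of 22180 genes rose (0.902%) and 3 fell (0.0135%). Groups stood apart with Flattop above in 2.01% of all genes. All 5 members had an unadjusted p under 0.05, against 9.78% of all genes in either direction. The median difference of the 5 members was 3.49, against -0.06 over all genes tested. Members were chosen with earlier results of these data known, so the counts describe them and set them apart from no other family. In sorted bulk samples, more cells of a type and more RNA per cell cannot be told apart.

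**Figure D1:**
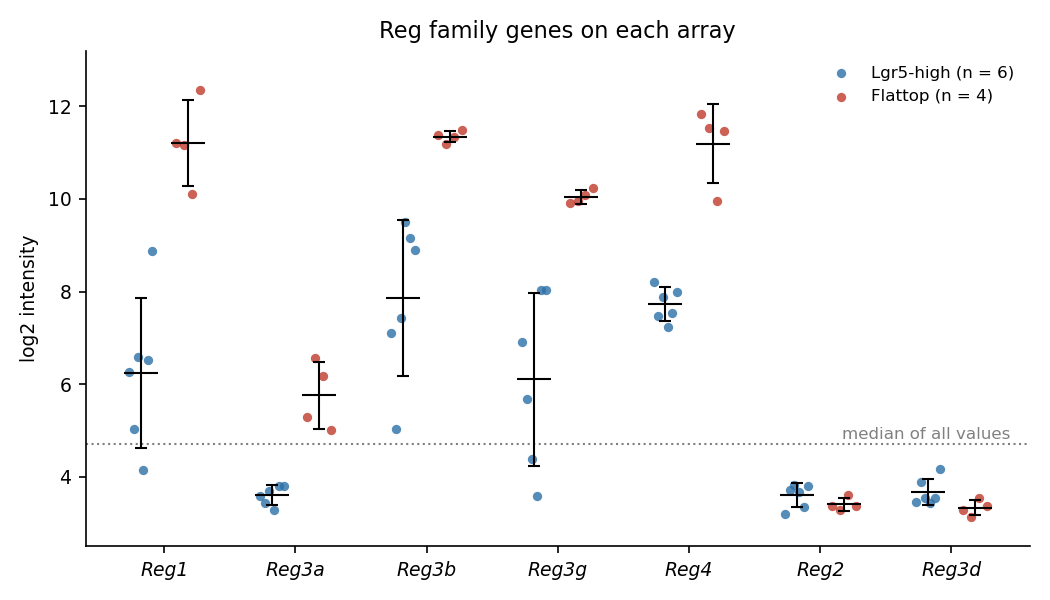
Log2 intensity of 7 Reg genes on each array, with Lgr5-high arrays in blue (n = 6) and Flattop arrays in red (n = 4), horizontal bars for group means and error bars for SD. Flattop points lie above all Lgr5-high points for Reg1, Reg3a, Reg3b, Reg3g and Reg4, while Reg2 and Reg3d overlap below the dotted median of all values (4.7). Heights of different genes come from different probe sets and are not comparable.

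Reg4, the member on chromosome 3, binds mannan in a calcium-independent way in its human form. It read 11.83, 11.53, 9.95 and 11.47 in Flattop replicates 1 to 4. Its Lgr5-high arrays ran from 7.24 through a median of 7.71 to 8.21. Flattop replicate 3 was the lowest of its group and still lay 1.74 above the highest Lgr5-high array. The mean rose from 7.72 ± 0.37 (SD, n = 6) to 11.19 ± 0.85 (SD, n = 4), by 3.47 (SE 0.34, 95% interval 2.71 to 4.23, adjusted p = 5.95e-04), an 11.1-fold higher signal. Reg4 ranked 31st of 22180 genes by p-value, the first of the 5. Titles 1 to 8 alone gave 3.82 (adjusted p = 0.0116), and titles 38 to 46 gave 3.12, which did not pass (adjusted p = 0.121).

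Reg1 showed the largest difference of the family. Flattop replicates 1 to 4 read 11.20, 11.16, 10.11 and 12.36, and the Lgr5-high arrays ran from 4.15 through a median of 6.40 to 8.88. The highest Lgr5-high array was replicate 6, and the lowest Flattop array lay 1.24 above it. The rise from 6.24 ± 1.61 (SD, n = 6) to 11.21 ± 0.92 (SD, n = 4) was 4.97 (SE 0.78, 95% interval 3.24 to 6.70, adjusted p = 0.0134), or 31.4-fold, the 15th largest rise of all genes. The call ended without Flattop replicate 2 (4.99, adjusted p = 0.0515) and within titles 38 to 46 (4.72, adjusted p = 0.414), where the Lgr5-high arrays spanned from 4.15 to 8.88. Lgr5-high replicates 1 to 3 lay closer together, at 6.27, 5.03 and 6.58, and within titles 1 to 8 the difference of 5.23 passed (adjusted p = 0.022).

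Reg3a, whose human namesake is a bactericidal lectin, had the smallest difference of the 5 members. Flattop replicates 1 to 4 read 5.28, 6.56, 6.17 and 5.01. All 6 Lgr5-high arrays lay between 3.29 and 3.81, with a median of 3.64, which is under the median of all values and within the range of the lower quartiles of the arrays (3.59 to 3.84). Without detection calls the size of the difference is uncertain. The mean rose from 3.60 ± 0.21 (SD, n = 6) to 5.76 ± 0.73 (SD, n = 4), by 2.15 (SE 0.28, adjusted p = 0.00401). The call ended in either title range alone, where fewer arrays were compared. The difference was 2.35 for titles 1 to 8 (adjusted p = 0.133) and 1.95 for titles 38 to 46 (adjusted p = 0.195). Across Flattop arrays Reg3a ran in another order than Reg1 and Reg3b: replicates 1 and 4, its lowest Flattop arrays, were the highest Flattop arrays for those genes.

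Reg3b, active mainly against Gram-negative bacteria, was nearly level across the Flattop arrays and scattered across the Lgr5-high arrays. Flattop replicates 1 to 4 read 11.38, 11.19, 11.33 and 11.49, a range of 0.30. Lgr5-high arrays ran from 5.04 in replicate 2 through a median of 8.16 to 9.51 in replicate 4, a range of 4.47, so the SD was 13.4 times that of Flattop (1.68 against 0.13). The difference of 3.49 (SE 0.75, 95% interval 1.84 to 5.15) had an adjusted p of 0.0696 in limma and did not pass, although the groups lay 1.68 apart. Without Lgr5-high replicate 2 it was 2.93 and passed (adjusted p = 0.0269). Arrays with titles 1 to 8 alone gave 4.76 (adjusted p = 0.104), and those with titles 38 to 46 gave 2.22 (adjusted p = 0.042). The contrast lay in the Lgr5-high arrays: replicates 1 to 3 read 7.10, 5.04 and 7.42, and replicates 4 to 6 read 9.51, 9.15 and 8.89. The interaction of group and title range was -2.54 (SE 0.85), with an unadjusted p of 0.0154 and an adjusted p of 0.568 in limma, so it did not pass. In that test 2 of 22180 genes (0.00902%) passed.

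Reg3g, the lectin that keeps Gram-positive bacteria off the epithelial surface, had the same shape. Flattop replicates 1 to 4 read 9.91, 9.95, 10.09 and 10.24, a range of 0.33. Lgr5-high arrays ran from 3.58 in replicate 4 through a median of 6.29 to 8.04 in replicate 6, a range of 4.46 and an SD 12.6 times that of Flattop (1.88 against 0.15). The difference of 3.95 (SE 0.83, 95% interval 2.10 to 5.79) had an adjusted p of 0.065 in limma and did not pass. It passed without Lgr5-high replicate 5 (4.33, adjusted p = 0.0446) or 6 (4.33, adjusted p = 0.0495), which read 8.03 and 8.04. Neither title range gave a call, with 4.28 for titles 1 to 8 (adjusted p = 0.129) and 3.61 for titles 38 to 46 (adjusted p = 0.587). The limma model uses 1 spread per gene for both groups, so for Reg3b and Reg3g the SE comes almost wholly from the Lgr5-high arrays.

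**Figure D2:**
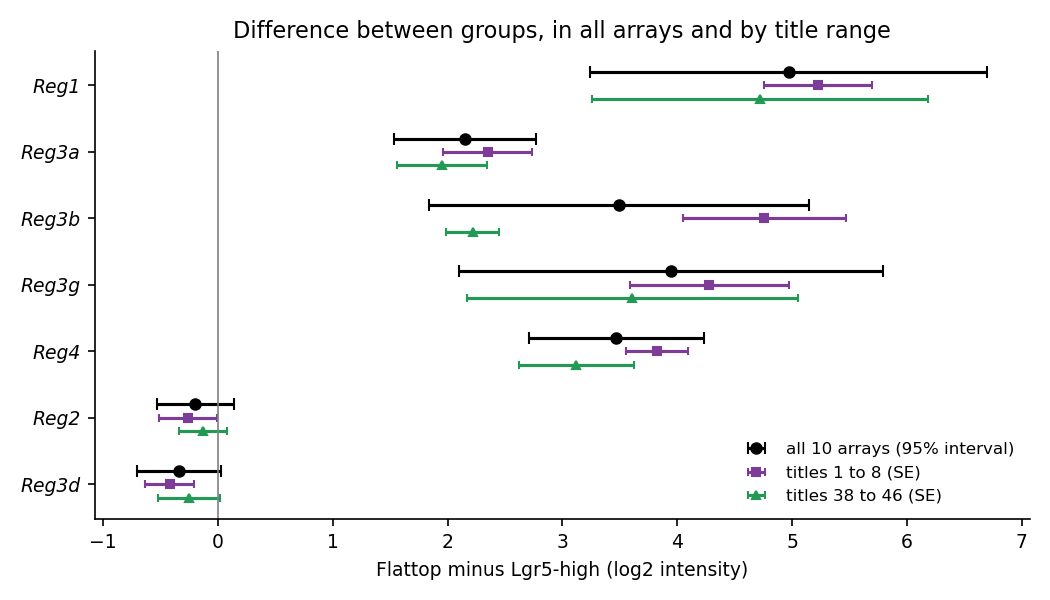
Difference in mean log2 intensity, Flattop minus Lgr5-high, for 7 Reg genes: all 10 arrays with the 95% interval (black), titles 1 to 8 (purple) and titles 38 to 46 (green) with SE. The 5 members lie above 0 in all 3 comparisons, and Reg3b has the widest gap between title ranges (4.76 and 2.22).

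Reg2 and Reg3d, which in the mouse are known mainly from the pancreas, read low in both groups and did not pass. Reg2 read 3.36, 3.28, 3.61 and 3.36 in Flattop replicates 1 to 4 and 3.20 to 3.83 in Lgr5-high arrays (-0.20, SE 0.15, limma adjusted p = 0.7). Reg3d read 3.28, 3.14, 3.55 and 3.37 in Flattop and 3.44 to 4.16 in Lgr5-high arrays (-0.34, SE 0.17, limma adjusted p = 0.564). Both lay under the median of all values on every array, and without detection calls it is not known whether either was detected. Along the cluster, Reg3d lies between Reg3b and Reg3a, and Reg2 between Reg3a and Reg1. The nearest protein-coding gene before the cluster, Ctnna2, a neuronal catenin, differed by -0.17 (SE 0.11, adjusted p = 0.66).

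**Figure D3:**
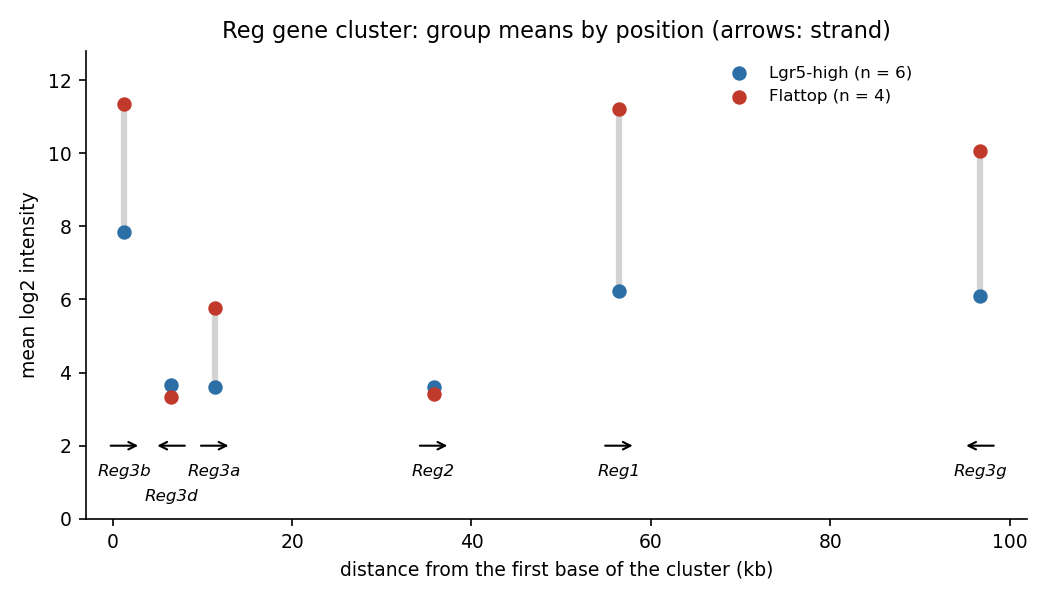
Mean log2 intensity of the 6 Reg genes of chromosome 6 in Lgr5-high (blue, n = 6) and Flattop (red, n = 4) arrays, against the distance in kb from the first base of the cluster; arrows give the strand. Reg3b, Reg3a, Reg1 and Reg3g are higher in Flattop arrays, and Reg3d and Reg2, which lie between them, are at 3.34 to 3.67 in both groups. Heights of different genes come from different probe sets.

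The members did not share 1 order across the Lgr5-high arrays. Replicate 4 was the lowest Lgr5-high array for Reg1 (4.15), Reg3a (3.29), Reg3g (3.58) and Reg4 (7.24) and the highest for Reg3b (9.51). Replicate 6 was the highest for Reg1 and Reg3g. Over the 6 Lgr5-high arrays, Reg1 and Reg3a had Pearson's r = 0.89 (exact permutation p = 0.00556, adjusted 0.0833) and Spearman's rho = 0.94 (exact permutation p = 0.0167, adjusted 0.25). Without the 2 arrays farthest from the median of Reg3a, r was 0.61 over the 4 arrays left, so the relation rests in part on those 2. Reg3b and Reg3g had r = 0.11 (exact permutation p = 0.856, adjusted 0.908) and rho = -0.09 (exact permutation p = 0.919, adjusted 0.985). This low r rests in part on replicates 3 and 4, the 2 arrays farthest from the median of Reg3g. In replicates 1, 2, 5 and 6, Reg3b read 7.10, 5.04, 9.15 and 8.89. Reg3g read 6.90, 5.67, 8.03 and 8.04 there. The genes ran nearly in step over those 4 arrays, which were left by a choice on the Reg3g values. Replicates 1 and 2 are of the lower title range and replicates 5 and 6 of the higher, where both genes read higher. The step thus coincides with title range in part, and these few arrays cannot separate the 2. Such trimming also moved other relations, as for Reg3a with the Paneth list mean (r from -0.37 to -0.96). Over the 6 Lgr5-high arrays the Paneth list mean had r = 0.28 with Reg3b (exact permutation p = 0.597, adjusted 0.875). Its rho with Reg3b was 0.37 (exact permutation p = 0.497), and r lay between -0.67 and -0.05 with the other members. None of the 15 relations computed passed after adjustment, and the 4 Flattop arrays are too few for such a value. Reg3a spans 0.53 in this group, under the median of all values.

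Some genes of the cell types that make Reg proteins rose on the same arrays, and 0 of these 4 lists' genes fell. At an unadjusted limma p under 0.05, 17 of 19 Paneth and 15 of 16 goblet genes were higher. So were 11 of 20 enteroendocrine and 17 of 18 enterocyte genes, and 1326 of all 22180 genes. Groups stood apart with Flattop above in 15, 12, 9 and 13 genes of these lists, in that order, against 2.01% of all genes. Of 19 measured Paneth cell genes, 9 rose and 0 fell (median 3.04, list means 10.09 to 11.08 in Flattop and 7.42 to 8.63 in Lgr5-high arrays), among them the lectin Itln1 (3.04, SE 0.22), the colipase Clps (3.72), the pentraxin Mptx2 (4.94), the lysozyme Lyz1 (3.57) and the alpha-defensin Defa26 (3.19), the last also uncertain as to the copy. Of 16 goblet cell genes, 8 rose (median 1.41, list means 9.76 to 10.83 against 7.98 to 9.06), including the mucus proteins Fcgbp (2.37) and Clca1 (2.74). Of 20 enteroendocrine genes, 6 rose (median 1.10, list means 6.82 to 7.84 against 5.97 to 6.60), including the hormones Gip (2.89) and Sst (3.40). Of the same 20 genes, 17 lay above 0 and the lowest was Neurog3, the factor that starts enteroendocrine differentiation, at -1.66 (SE 0.74, limma adjusted p = 0.501). It was the only gene of that list lower at an unadjusted p under 0.05 and is named here after its value was seen. Of 18 enterocyte genes, 9 rose (median 2.24, list means 8.77 to 10.05 against 6.64 to 7.21), including the phosphatase Alpi (4.69) and the disaccharidase Sis (4.72). None of 14 stem cell genes passed in limma over all genes (median -0.61), while 7 had an unadjusted p under 0.05, all of them lower. The part of each cell type in the Reg differences was not tested.

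Other markers moved with the groups as well. Of 12 T cell and intraepithelial lymphocyte genes, 11 rose (median 5.15, list means 8.35 to 10.55 in Flattop and 4.44 to 4.89 in Lgr5-high arrays), with Cd3g, a T cell receptor component, higher by 6.43. Across Flattop replicates 1 to 4 that list mean read 8.35, 8.92, 10.55 and 10.07, while Reg3b and Reg3g each stayed within a range of 0.33 or less. Reg1 (10.11) and Reg4 (9.95) were lowest in Flattop replicate 3, where that list mean was highest, and Reg3a was lowest in replicate 4 (5.01). In replicate 4, where that list mean read 10.07, Reg1 (12.36), Reg3b (11.49) and Reg3g (10.24) were at their highest Flattop values. Of 6 ileum genes, 2 rose (median 1.13), the bile acid carriers Fabp6 (7.10) and Slc51a (3.67), and the list means were 7.20 to 7.95 against 4.98 to 6.07. Fabp6 is also on the enterocyte list. While 5 of the 6 lay above 0, Slc10a2 (0.20, limma adjusted p = 0.773) and Fgf15 (-0.06, limma adjusted p = 0.916) did not pass. Proximal small intestine genes rose in 2 of 10 cases (median -0.04), Rbp2 (4.15) and Gstm3 (1.46). The part of lymphocytes and of gut region in the Reg differences was not tested. Of 13 measured exocrine pancreas genes, a tissue rich in Reg1 and Reg2, 1 rose, Klk1 (1.25), a gene that is also on the goblet list. The pancreas list had a median of -0.04 and list means of 4.86 to 5.12 in Flattop and 4.88 to 5.13 in Lgr5-high arrays.

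**Figure D4:**
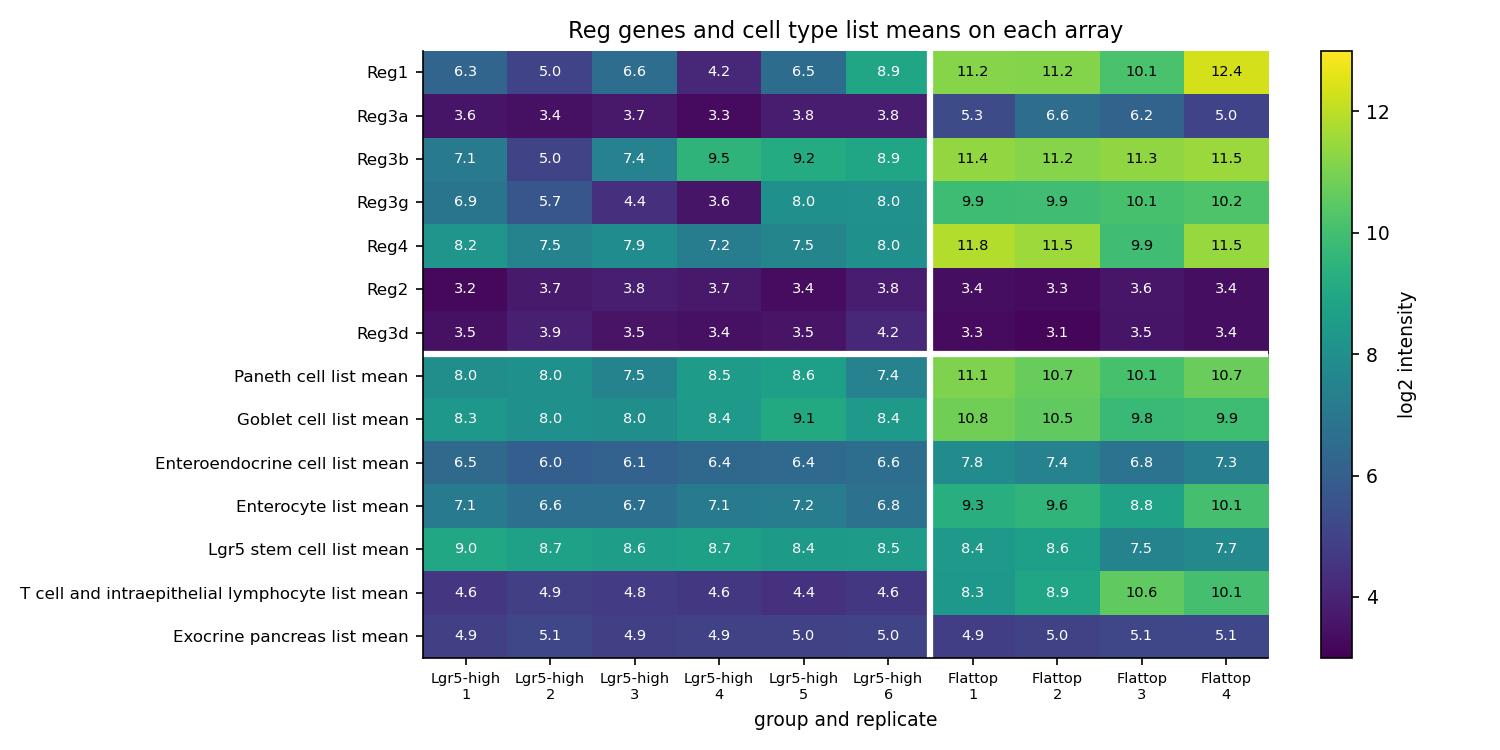
Log2 intensity of 7 Reg genes and mean log2 intensity of 7 cell type lists on each array (colour and printed value, rounded), Lgr5-high arrays on the left and Flattop arrays on the right. Paneth, goblet, enteroendocrine, enterocyte and lymphocyte list means are higher on all Flattop arrays, and the pancreas mean lies between 4.86 and 5.13 on all arrays.

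Most genes of the signals known to induce Reg3b and Reg3g did not pass in limma, a test in which 0.902% of all genes rose. Of 20 measured genes of IL-22 and IL-6 family signalling, 1 rose and 0 fell (median 0.12), while 5 were higher and 1 lower at an unadjusted limma p under 0.05. Over all 22180 genes, 1326 were higher and 843 lower at that unadjusted p. The list means were 5.46 to 5.61 in Flattop and 5.10 to 5.33 in Lgr5-high arrays and did not overlap. The gene that rose was Stat3, the transcription factor through which these cytokines act, with Flattop replicates 1 to 4 at 7.67, 7.79, 8.38 and 8.22. Its Lgr5-high arrays lay between 4.85 and 6.36, the lowest being replicate 4, and the rise was 2.16 (SE 0.29, adjusted p = 0.00451). The lymphocyte list was higher on the same arrays, by a median of 5.15, and its part in the Stat3 difference was not tested. The kinases Jak2 (1.26, adjusted p = 0.198) and Jak1 (0.68, adjusted p = 0.272) and the shared receptor chain Il10rb (0.69, adjusted p = 0.265) did not pass, nor did the oncostatin M receptor Osmr (-0.46, adjusted p = 0.331). Jak2 and Stat3 read higher on every Flattop array than on any Lgr5-high array, as did 2.01% of all genes. Il22 itself read 2.71 ± 0.17 (SD, n = 4) and 2.66 ± 0.05 (SD, n = 6), near the lowest value of the table (2.01). The epithelial receptor chain Il22ra1 read 8.47 ± 0.64 and 7.56 ± 0.57 (0.91, SE 0.35, adjusted p = 0.406). These last 2 genes were singled out for their roles after their values were seen.

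Of 20 measured response genes of STAT3 and IL-22, 1 rose (median -0.09), the cytokine Il18 (2.52, SE 0.44, adjusted p = 0.0232). In this list 3 genes were higher and 1 lower at an unadjusted limma p under 0.05. Il18 read 7.20, 6.97, 4.55 and 6.54 in Flattop replicates 1 to 4, against 3.49 to 4.20 in Lgr5-high arrays. The scavenger receptor protein Dmbt1, on the same list, was at 0.47 (adjusted p = 0.393). Of 16 genes of Toll-like receptor and NOD signalling, 0 passed in limma (median -0.00). At an unadjusted limma p under 0.05 a single gene was higher and 0 were lower. It was the inhibitor Tnfaip3 (0.75, SE 0.27, limma adjusted p = 0.366). The adaptor Myd88, singled out for its role, was at -0.02 (SE 0.23, adjusted p = 0.986).

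Among 21 other epithelial antimicrobial genes, 3 rose and 0 fell (median 0.34). At an unadjusted limma p under 0.05, 10 were higher and 1 lower, against 1326 and 843 of all 22180 genes. List means were 7.06 to 7.47 in Flattop and 6.08 to 6.53 in Lgr5-high arrays. The 3 that rose were Itln1, Lyz1 and the goblet lectin Zg16 (5.70, SE 1.07, adjusted p = 0.0354). Itln1 and Lyz1 are also on the Paneth list and Zg16 on the goblet list, so they are counted there as well. The ribonuclease Ang4 differed by 2.46 (SE 0.61, adjusted p = 0.126). Of 8 measured genes listed as Reg receptor and trypsin-like proteases, 0 passed in limma, and 0 did so at an unadjusted p under 0.05 (median -0.06). Extl3, the receptor proposed for Reg proteins, was at 0.38 (SE 0.34, adjusted p = 0.734) and Egfr at -0.61 (SE 0.49, adjusted p = 0.708).

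**Figure D5:**
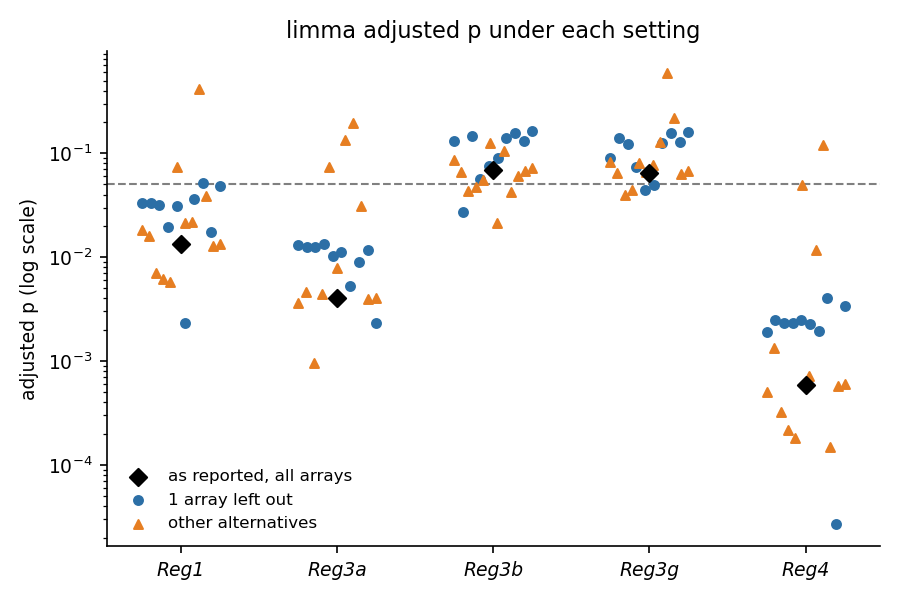
Adjusted p of the 5 members (log axis) as reported (black diamonds), with 1 array left out (blue circles) and under the other alternatives (orange triangles), with the threshold of 0.05 dashed. Reg4 lies under the threshold in 21 of 22 alternatives, Reg1 in 19 of 22 and Reg3a in 18 of 21, whereas Reg3b does so in 5 of 22 and Reg3g in 4 of 22.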

How the data were processed

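Sorted mouse intestinal cells were measured on 10 arrays. The authors deposited 1 log2 intensity per probe set and array, made with robust multi-array averaging (RMA) in oligo 1.38.0, per the submitters' processing notes. The sources used here do not give the details of these steps or any filter. Of 41345 probe sets, 23521 had 1 symbol in the platform annotation, 1814 had several and 16010 were unnamed here. Entrez numbers matched 23328 to RefSeq GRCm38.p6, with 0 symbols changed. For each of 22180 genes the probe set of highest mean was kept, without a filter on dim probe sets. The group difference was tested with lmFit and eBayes of limma 3.58.1 (R 4.3.3) and adjusted by Benjamini-Hochberg across genes, a procedure tested on simulated data. The simulated data had 1 spread per gene for both groups, so they do not cover the unequal spreads of Reg3b and Reg3g. Named genes were the members, Reg2, Reg3d, Lgr5, Cfap126, up to 5 genes of smallest p per list and the 3 genes most correlated with each member after subtracting group means. Members and lists were chosen with earlier results of these data known. Alternatives covered normalisation, dim probe sets, variance prior, array weights, blocks, title ranges, left-out arrays and the choice of probe set. Precision is limited by the number of arrays. Relations used exact permutation (scipy 1.17.1), and promoter windows were aligned globally with Biopython 1.88.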

Additional observations from a re-analysis of the deposited data

Results flagged for a closer look

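Dixon's test for a sample far from the rest of its group was run on 126 groups of values, for the genes named here and 8 list means, and marked 7, where chance marks about 1 in 20. None of the marked values belonged to the 5 Reg members. The ileal bile acid binding protein Fabp6 read 7.83 in Lgr5-high replicate 4, against 4.06 to 5.32 in the others, and this is the array with the highest Reg3b and the lowest Reg1, Reg3a, Reg3g and Reg4 of its group. Fabp6 also read 11.75 in Flattop replicate 4, against 12.34 to 12.45. The Paneth lectin Itln1 read 7.99 in Lgr5-high replicate 2, against 8.91 to 9.05, the array with the lowest Reg3b. Lgr5-high replicate 6, the highest of its group for Reg1 and Reg3g, was low for Ang4 (7.37 against 9.88 to 10.96) and for Clca1 (8.60 against 9.61 to 9.83). Somatostatin (Sst) read 6.88 in Lgr5-high replicate 3, against 8.73 to 9.28. The goblet list mean was 9.06 in Lgr5-high replicate 5, against 7.98 to 8.37.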

How the results depend on the processing

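All 5 members kept their direction under each of 22 alternatives (21 for Reg3a, which is left out with the dim probe sets). The number that rose went from 3 to 5 with a trended and robust prior, and to 1 with the replicate block or within titles 38 to 46. Reg1 missed the threshold with the replicate block (5.70) and within titles 38 to 46 (4.72), and lay between 4.55 and 5.50 with 1 array left out. Reg3a missed it with the replicate block (2.26), within titles 1 to 8 (2.35) and within titles 38 to 46 (1.95). Reg4 missed it within titles 38 to 46 (3.12). Reg3b passed with dim probe sets left out (3.49, adjusted p = 0.0432), the trended and robust prior (3.49, 0.0473), the title range block (3.49, 0.0212) and within titles 38 to 46 (2.22), and lay between 2.93 and 3.83 with 1 array left out. Reg3g passed with dim probe sets left out (3.95, adjusted p = 0.0398) and the trended and robust prior (3.95, 0.044), and lay between 3.44 and 4.33 with 1 array left out. The filter tests 13308 genes instead of 22180; the other causes were not tested. Correlations of deviations between arrays of the same replicate number were 0.30, -0.21, -0.01 and 0.03 for numbers 1 to 4. Flattop replicate 1 was closest to the Lgr5-high array of its own number, and replicates 2, 3 and 4 were not. These few values cannot settle whether replicate numbers pair the samples. Over all genes the replicate block left 57 higher and 0 lower calls against 200 and 3. The count over all genes also fell by over 1.5 times without Lgr5-high replicate 4 (130 higher, 2 lower), without Flattop replicate 2 (118 and 5) and within titles 1 to 8 (77 and 0) or 38 to 46 (75 and 10). No interaction of group and title range passed. With 1 array left out it lay between -1.69 and 0.67 for Reg1, -1.03 and 0.24 for Reg3a, -2.99 and -1.80 for Reg3b, -2.15 and 0.08 for Reg3g and -1.47 and 0.05 for Reg4.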

Other observations

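Likeness to each member was measured as Pearson's r of deviations from the group means over the 10 arrays, among 10043 genes for Reg1, and the values are the highest of so many that they are given as a description with no p. Reg3b was most like the Paneth lysozyme Lyz1 (0.95), which read 7.21 to 11.59 in Lgr5-high arrays and 13.13 to 13.46 in Flattop arrays, then Derl2 (0.94), a protein of endoplasmic reticulum quality control, and Prr14l (0.93). Lyz1 is 1 gene of the Paneth list, whose mean had r = 0.28 with Reg3b over the 6 Lgr5-high arrays. Reg4 was most like the ribosomal protein gene Rpl32 (0.98), Uqcc3 (0.96) and Zcchc17 (0.96). Reg1 was most like the mitochondrial carrier Slc25a39 (0.97), Samd1 (0.91) and Trim31 (0.90). Reg3g was most like Serhl (0.96), Adnp (0.94) and Faim (0.92), and Reg3a was most like Plcxd2 (0.92), the cytokine Il13 (0.90) and Pnisr (0.89). No gene stood on the list of more than 1 member.

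Further marker lists were counted on the same arrays. Of 10 measured genes of type 3 innate lymphoid and IL-17 cells 1 rose (median -0.01), of 10 proximal small intestine genes 2 rose (median -0.04) and of 10 colon genes 1 rose (median -0.02). None passed in limma among 10 tuft cell genes (median 0.20), 12 myeloid genes (-0.02), 7 B and plasma cell genes (-0.12), 12 genes of mesenchyme and endothelium (-0.14) and 20 dissociation genes (0.30). At an unadjusted p under 0.05 these 5 lists held 0, 1, 1, 0 and 3 higher genes and 0, 1, 0, 1 and 0 lower genes. The dissociation list had a median of -0.23 for titles 1 to 8 and of 0.85 for titles 38 to 46. Reg3b differed by 4.76 and 2.22 in these ranges, and its interaction of group and title range did not pass. Medians of other lists differed between the ranges as well, and those of the lymphocyte and ileum lists did so by more. A link between any of these lists and Reg3b was not tested.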
